A study of Mus musculus with 10 samples.

Results

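The surface receptor genes by which T cells are immunophenotyped were examined in T-ALL, T cell acute lymphoblastic leukemia, of mice: the CD3 chains Cd3e, Cd3d, Cd3g and Cd247, the receptor locus Tcra, the coreceptors Cd4, Cd8a and Cd8b1, and the costimulators Cd2 and Cd28. They were found as every probe set that the platform annotation gives to a single symbol among these names, which gave 19 of 45101 probe sets and 10 of 18193 genes. Leukemic cells of secondary recipient mice were measured on 10 expression arrays in 2 groups. In the TAM group (5 arrays), tamoxifen had deleted CnB1, the gene of the calcineurin B subunit, now named Ppp3r1. The OIL group (5 arrays) received the corn oil carrier and kept it. All 10 samples were ICN1 leukemias, driven by activated NOTCH1, and all carried the ROSCreERT2 transgene, a Cre recombinase that tamoxifen switches on, and 2 floxed CnB1 copies. OIL therefore lacked both the drug and the deletion, and the effect of tamoxifen itself cannot be told apart from that of the deletion. Leukemic cells made up over 50% of the marrow and were sorted on a fluorescent marker. Each group held the sample labels 204, 206, F3.1, F3.2 and F3. Whether each array is a separate mouse, and what the F3 names mean, is not in the labels, and the p-values below speak of the spread among these arrays and no further.

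The antigen receptor of a T cell has no signalling tail of its own. It reaches the surface with the CD3 gamma, delta, epsilon and zeta chains, whose tails are phosphorylated by the kinase Lck. CD4 and CD8 bind class II and class I major histocompatibility molecules and bring Lck to the receptor, CD28 delivers a costimulatory signal from B7 ligands, and CD2 is an adhesion receptor for CD48 in mice. Thymocytes start with neither coreceptor, then carry both, and keep either CD4 or CD8. Calcineurin acts downstream of the receptor by dephosphorylating NFAT transcription factors.

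Promoter windows are shown for the member that varied most across arrays, Cd8a, and for the neighbouring genes Cd3g, Cd3d and Cd3e, whose levels ordered the sample labels alike. RefSeq windows of assembly GRCm38.p6, running from 250 bases before to 50 bases after each start, were matched for 5 of the 10 members, the other being Cd247. Those printed lie at chr6:71373177-71373476 (plus strand) for Cd8a, chr9:45009562-45009861 (minus strand) for Cd3e, chr9:44981536-44981835 (plus strand) for Cd3d and chr9:44980382-44980681 (minus strand) for Cd3g. Capitals mark the NFAT core GGAAA on either strand, so TTTCC is its other-strand form.
Cd8a: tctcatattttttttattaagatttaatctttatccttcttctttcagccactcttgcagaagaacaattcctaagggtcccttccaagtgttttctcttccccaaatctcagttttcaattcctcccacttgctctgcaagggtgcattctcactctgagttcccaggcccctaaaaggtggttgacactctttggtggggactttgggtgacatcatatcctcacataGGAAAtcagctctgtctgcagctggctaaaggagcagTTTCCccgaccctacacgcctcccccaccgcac
Cd3e: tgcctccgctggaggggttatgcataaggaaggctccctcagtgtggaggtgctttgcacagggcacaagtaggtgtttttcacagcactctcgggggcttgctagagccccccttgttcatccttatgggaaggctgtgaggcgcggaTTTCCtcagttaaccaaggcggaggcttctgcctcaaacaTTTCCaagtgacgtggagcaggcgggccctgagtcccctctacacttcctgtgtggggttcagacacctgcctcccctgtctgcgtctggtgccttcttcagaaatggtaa
Cd3d: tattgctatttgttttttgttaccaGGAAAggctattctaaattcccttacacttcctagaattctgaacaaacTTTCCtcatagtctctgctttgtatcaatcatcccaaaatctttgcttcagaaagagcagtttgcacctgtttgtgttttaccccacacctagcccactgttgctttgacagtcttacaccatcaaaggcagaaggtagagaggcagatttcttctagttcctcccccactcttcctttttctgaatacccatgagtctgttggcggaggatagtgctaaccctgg
Cd3g: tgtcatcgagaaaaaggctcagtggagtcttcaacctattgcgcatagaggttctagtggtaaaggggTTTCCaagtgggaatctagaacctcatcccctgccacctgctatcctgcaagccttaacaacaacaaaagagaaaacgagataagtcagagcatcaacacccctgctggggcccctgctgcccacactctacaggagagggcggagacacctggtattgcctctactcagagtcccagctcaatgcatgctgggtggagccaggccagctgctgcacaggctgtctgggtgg
The core occurred 2 times each in the Cd8a, Cd3e and Cd3d windows, 1 time in the Cd3g window and 0 times in the Cd247 window, and 61.3% of all 32851 RefSeq windows of this length hold it. The RUNX core TGTGGT, searched on both strands, was not in these letters for any of the 5, and 16.8% of all windows hold it. No match overlapped another. The matches describe the letters only and no binding was measured.

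Values are log2 RMA expression, so a difference of 1 is a 2-fold change, and every difference is TAM minus OIL unless stated. Levels are set against those of the same probe set only, since probe sets differ in how brightly they report. A gene was represented by its brightest probe set, and the fit covered the 12735 genes above a dim limit of 4.59. The deleted gene was lower in the TAM arrays in 5 of 5 label pairs on both of its probe sets: 1421786_at lay between 3.02 and 3.59 in TAM and between 4.49 and 6.04 in OIL, and 1433591_at differed by only -0.12. Where these probe sets lie relative to the deleted part was not determined. Of the T lineage markers, 8 of the 10 set had a probe set annotated to a single symbol. Among these 8, 4 were members here, and none of the 8 was dim. Their mean was 11.16 to 11.45 in TAM and 10.94 to 11.31 in OIL. B cell, erythroid, dendritic and megakaryocyte lists averaged 4.37 to 5.38 in TAM and 4.47 to 5.32 in OIL, with 5 of 8, 3 of 5, 3 of 9 and 1 of 4 genes dim by their means. Of the NK list, Ncr1, Klrk1 and Klrd1 were dim by their means, while the granzyme gene Gzma averaged 12.95 in TAM and 12.75 in OIL. Among myeloid markers, 2 of 11 (Itgam and Mpo) were dim, and the list mean ranged over arrays between 5.36 and 6.72 in TAM and between 4.88 and 6.22 in OIL.

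Of the 10 member genes, 0 passed the adjusted threshold of 0.05 in limma's fit without a block, against 0.471% of all genes. At an unadjusted p under 0.05 there were 4, namely Cd28, Cd3e and Tcra with higher values and Cd2 with lower values, against 13% of all genes. With the label as a block, 3 members passed: Tcra and Cd28 rose and Cd2 fell in TAM, while 3.38% of all genes passed (1.65% higher and 1.74% lower). In both fits OIL F3.1 and OIL F3.2, near-identical over all probe sets (Pearson r = 0.997), counted as 2 arrays. The mean was higher in TAM for 8 of 10 member genes, with a median difference of 0.23 over the members and of -0.03 over all tested genes. The direction was shared by all 5 label pairs in 6 members, and in 21.9% of all genes. Among the 6 was Cd247, whose F3.1 pair differed by 0.00 after rounding. TAM and OIL values did not overlap in 1 member, Cd2, and in 3.27% of all genes.

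**Figure D1:**
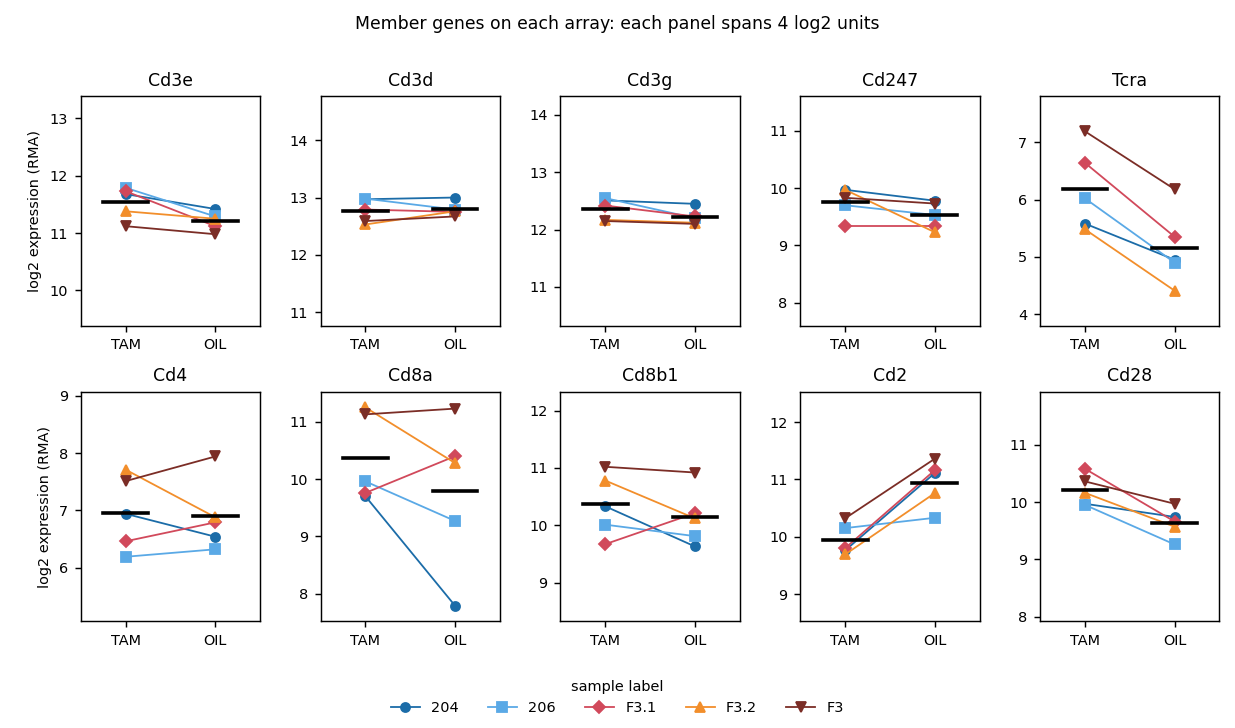
Log2 RMA expression (vertical axis) of the representing probe set of each member gene on each array, TAM on the left and OIL on the right. Lines join arrays of the same sample label, black bars are group means, and each panel spans 4 log2 units. Cd2 is lower and Tcra and Cd28 are higher in TAM in all 5 pairs, while the Cd3d and Cd3g panels are nearly flat. Cd3e, Cd3g and Cd247 are also higher in all 5 pairs, by smaller mean differences.

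Counts were also taken over single probe sets. Of the 19, 18 were bright enough to test, 16 of 19 had a higher mean in TAM, and 12 moved in 1 direction in all 5 pairs. Neither of the counts of 16 and 12 was taken over all probe sets. Both hold repeated readings of the same genes, such as Cd8a, Cd28 and Cd247. The median difference was 0.24, against -0.02 over all tested probe sets. In limma's fit without a block 0 passed, against 0.102% of all probe sets, and 5 had an unadjusted p under 0.05, against 10.9%. With the label as a block 4 passed, against 1.8%: those of Tcra and Cd2 and both of Cd28.

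The invariant CD3 chains were bright on every array and differed little between the groups. Cd3e (1422105_at, chromosome 9), the epsilon chain that pairs with gamma and with delta, read 11.68, 11.79, 11.73, 11.38 and 11.12 in TAM samples 204, 206, F3.1, F3.2 and F3, against 11.42, 11.29, 11.12, 11.25 and 10.98 in the OIL samples in the same order, which all later readings keep. It was higher in TAM in 5 of 5 pairs, by 0.13 to 0.61, yet the groups overlapped. The means were 11.54 ± 0.28 in TAM and 11.21 ± 0.17 in OIL (SD, n = 5 each), a 1.26-fold difference of 0.33 (95% interval 0.02 to 0.63) with a limma adjusted p of 0.348, and of 0.0897 with the label as a block. Cd3e thus missed the threshold in both fits.

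Cd3d (1422828_at), the delta chain, was the member with the smallest difference. It read 12.97, 12.98, 12.79, 12.53 and 12.59 in TAM and 13, 12.79, 12.75, 12.76 and 12.67 in OIL, by label. The groups overlapped almost wholly, with TAM higher in 2 pairs and lower in 3. The means were 12.77 ± 0.21 in TAM and 12.79 ± 0.12 in OIL (SD, n = 5 each), and the 95% interval of the difference of -0.02 was -0.26 to 0.21 (limma adjusted p = 0.959). The sign of so small a value turned when TAM F3.2, TAM F3 or OIL 204 was left out, giving 0.04, 0.02 and 0.03.

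Cd3g (1419178_at), the gamma chain, read 12.51, 12.55, 12.42, 12.17 and 12.15 in TAM and 12.45, 12.20, 12.23, 12.12 and 12.10 in OIL. TAM was higher in 5 of 5 pairs, by at most 0.35, and the groups overlapped. The means were 12.36 ± 0.19 in TAM and 12.22 ± 0.14 in OIL (SD, n = 5 each). The difference of 0.14 had a 95% interval of -0.09 to 0.37 and a limma adjusted p of 0.623, or 0.273 with the block.

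Cd247, which encodes the zeta chain with its several activation motifs, lies on chromosome 1 and had 4 probe sets. The brightest, 1426396_at, read 9.97, 9.70, 9.34, 9.97 and 9.83 in TAM and 9.78, 9.53, 9.34, 9.23 and 9.73 in OIL. The F3.1 arrays were equal to 2 decimals and the F3.2 pair differed most, by 0.73. The means were 9.76 ± 0.26 in TAM and 9.52 ± 0.24 in OIL (SD, n = 5 each), a difference of 0.24 (95% interval -0.08 to 0.56, limma adjusted p = 0.541, and 0.242 with the block). Probe set 1452539_a_at varied widely between labels: labels F3.1 and F3.2 both averaged 7.53, against 8.71 for 204, 8.32 for 206 and 8.69 for F3, while TAM averaged 8.26 ± 0.58 and OIL 8.05 ± 0.62 (SD, n = 5 each). It was higher in TAM in 5 of 5 pairs, by 0.05 to 0.46, with a blocked 95% interval of 0.03 to 0.39 and a limma adjusted p with the block of 0.2 over all probe sets. Probe set 1420716_at was higher in TAM in 3 of 5 pairs, with a mean difference of 0.19. Probe set 1426079_at stayed below the dim limit on all 10 arrays and was not tested.

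Tcra rose in TAM when the label was a block. Its only probe set, 1443140_at, is annotated to the whole receptor alpha locus on chromosome 14, and which part of the locus it reads was not determined. It read 5.58, 6.02, 6.64, 5.48 and 7.19 in TAM samples 204, 206, F3.1, F3.2 and F3, against 4.95, 4.90, 5.35, 4.41 and 6.18 in OIL. Every TAM array exceeded the OIL array of its label, by 0.63 to 1.29, but the labels differed so much that the groups overlapped. The signal was low, and OIL F3.2 lay below the dim limit.

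The Tcra means were 6.18 ± 0.73 in TAM and 5.16 ± 0.66 in OIL (SD, n = 5 each), a difference of 1.02, or 2.03-fold. The limma adjusted p was 0.292 without a block (95% interval 0.17 to 1.88) and 0.00627 with it (0.80 to 1.25). With the block and any 1 pair left out, the difference was 0.96 to 1.12 and the adjusted p 0.0122 to 0.0281. When the dimmest 50% of genes were left out, Tcra was not among those tested. In bulk samples, fewer cells of a type and less RNA per cell cannot be told apart, here or for any member below.

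A list of 15 antigen receptor names, Tcra itself among them, matched 3 other genes through probe sets annotated to a single symbol. All 3 were tested, and 2 had a higher mean in TAM. Of the 3, 0 passed without a block and 0 had an unadjusted p under 0.05, and with the block 1 fell. That was Trgv4, a gamma chain variable segment, at 9.73 ± 2.37 in TAM and 10.88 ± 2.04 in OIL (SD, n = 5 each), lower in TAM in 5 of 5 pairs by a mean of 1.15 (difference -1.15, limma adjusted p = 0.747, and 0.0459 with the block). Trgv4 split the labels far more than the groups: the F3 labels exceeded 204 and 206 by 3.79 (limma adjusted p = 0.0304). Its other probe sets differed between TAM and OIL by -1.21 and -1.43. Gamma variable segments resemble each other, and whether these probe sets read others was not determined. The beta chain variable segment Trbv13-2 split the labels the other way, by -2.42 (limma adjusted p = 0.0155). It averaged 8.50 ± 1.12 in TAM and 6.97 ± 1.96 in OIL (SD, n = 5 each) and was higher in TAM in 5 of 5 pairs, by a mean of 1.52 (limma adjusted p = 0.516, and 0.166 with the block). Ptcra, the surrogate alpha chain of immature thymocytes, differed by 0.17 and passed in neither fit.

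On their brightest probe sets the coreceptors varied across arrays more than the CD3 chains did, and they passed the threshold in none of the fits. Cd8a, the alpha chain of CD8 on chromosome 6, had the widest range of any member. Its brightest probe set, 1444078_at, read 9.70, 9.96, 9.76, 11.25 and 11.13 in TAM samples 204, 206, F3.1, F3.2 and F3, against 7.79, 9.27, 10.40, 10.28 and 11.23 in OIL, a range of 3.47. OIL 204 stood lowest by a wide margin, the F3.2 and F3 arrays of TAM and the F3 array of OIL stood highest, and the groups overlapped. The means were 10.36 ± 0.77 in TAM and 9.80 ± 1.32 in OIL (SD, n = 5 each). The difference of 0.56 had a 95% interval of -0.76 to 1.89 and a limma adjusted p of 0.748, or 0.35 with the block. Leaving out OIL 204 brought it to 0.06.

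The other 4 Cd8a probe sets did not follow the brightest in every pair. The brightest was higher in TAM in 3 of 5 pairs, and lower by 0.65 in F3.1 and by 0.10 in F3 (differences of -0.65 and -0.10). The others were higher in TAM in 5 of 5 pairs, with mean differences of 0.52 for 1440164_x_at, 0.89 for 1451673_at, 0.92 for 1440811_x_at and 0.94 for 1425335_at. The last of these read 9.27, 9.59, 9.42, 10.65 and 10.94 in TAM and 7.30, 8.96, 9.27, 8.99 and 10.66 in OIL. These 4 had limma adjusted p of 0.554 to 0.58 over all probe sets, and of 0.0884 to 0.13 with the block, so the threshold was missed in both fits. The suffix x marks probes that other sequences may share.

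Cd8b1, the beta chain of CD8, is the coding gene next to Cd8a. Its probe set 1426170_a_at read 10.33, 10.01, 9.67, 10.78 and 11.02 in TAM and 9.63, 9.81, 10.21, 10.12 and 10.92 in OIL. TAM was higher in 4 of 5 pairs and lower in F3.1, the pair in which the brightest Cd8a probe set was also lower. The means were 10.36 ± 0.55 in TAM and 10.14 ± 0.49 in OIL (SD, n = 5 each). The difference of 0.22 had a 95% interval of -0.43 to 0.87 and a limma adjusted p of 0.803, or 0.483 with the block. Its size rested on single arrays, at 0.06 without TAM F3, 0.12 without TAM F3.2, 0.09 without OIL 204, 0.14 without OIL 206, 0.40 without TAM F3.1 and 0.42 without OIL F3.

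Cd4, the class II coreceptor, did not separate the groups. Probe set 1419696_at read 6.94, 6.19, 6.46, 7.71 and 7.51 in TAM and 6.54, 6.32, 6.79, 6.88 and 7.94 in OIL, with TAM higher in 2 of 5 pairs. The means were 6.96 ± 0.65 in TAM and 6.90 ± 0.63 in OIL (SD, n = 5 each), and the difference of 0.07 had a 95% interval of -0.72 to 0.86 (limma adjusted p = 0.966, and 0.861 with the block). Its sign turned when TAM F3.2, TAM F3, OIL 204 or OIL 206 was left out, giving -0.12, -0.07, -0.02 and -0.08. The dimmer probe set 1427779_a_at read 4.93, 4.74, 4.83, 5.43 and 5.53 in TAM and 4.70, 4.91, 4.79, 4.73 and 5.83 in OIL, with a difference of 0.10.

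**Figure D2:**
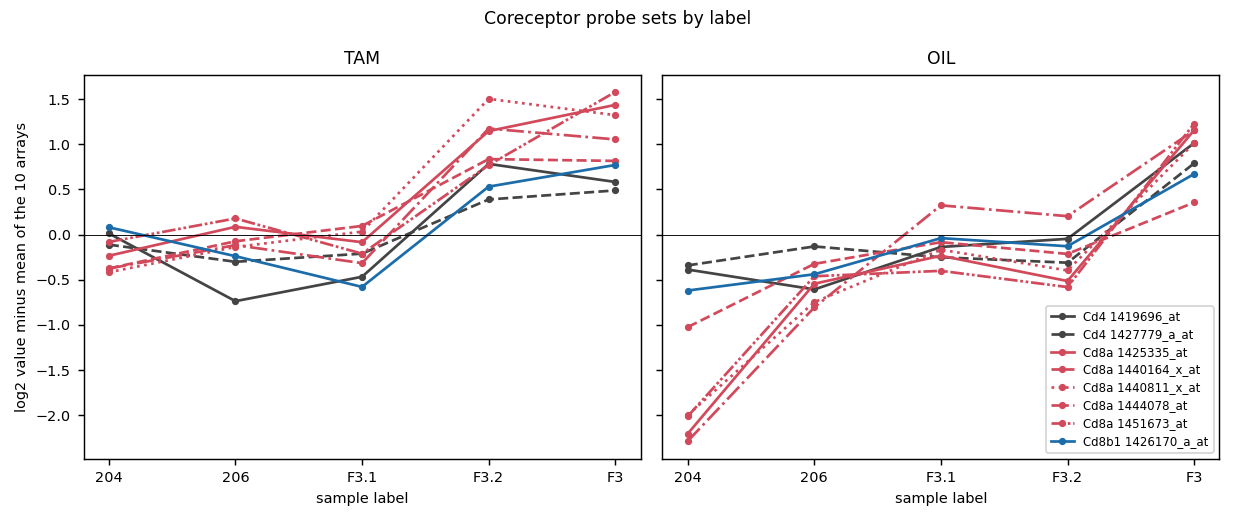
Coreceptor probe sets by sample label, as log2 value minus the probe set's mean over the 10 arrays, with TAM on the left and OIL on the right; each line is 1 probe set. The F3 label is above the mean in both groups for all coreceptor probe sets, and OIL 204 holds the lowest Cd8a values.

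Cd2 fell in TAM when the label was a block, and it was the only member whose groups did not overlap. Probe set 1418770_at (chromosome 3) read 9.76, 10.15, 9.80, 9.69 and 10.32 in TAM samples 204, 206, F3.1, F3.2 and F3, against 11.11, 10.33, 11.16, 10.76 and 11.36 in OIL. The gap between the groups was thin, since TAM F3 at 10.32 lay just under OIL 206 at 10.33, and label 206 was the pair with the smallest difference, -0.18. The other 4 pairs differed by -1.04 to -1.36. The means were 9.95 ± 0.28 in TAM and 10.94 ± 0.41 in OIL (SD, n = 5 each), a difference of -1.0 and 2-fold lower in TAM (95% interval -1.44 to -0.56).

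The limma adjusted p of Cd2 was 0.0588 without a block and 0.0271 with it. Without the block it passed when OIL 206 was left out, with a difference of -1.15 and an adjusted p of 0.025. When any other single array was left out it missed the threshold, with a limma adjusted p of 0.0664 to 0.174. With the block it passed without pair 206 (0.0098) and missed the threshold without any other pair, at 0.0871 without 204, 0.104 without F3.1, 0.0532 without F3.2 and 0.09 without F3. The direction was the same in every one of these fits.

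Cd28 rose in TAM with the label as a block, on both of its probe sets. Probe set 1437025_at (chromosome 1, next to the gene of the inhibitory receptor Ctla4) read 9.97, 9.95, 10.58, 10.16 and 10.36 in TAM and 9.74, 9.26, 9.66, 9.57 and 9.97 in OIL. TAM was higher in 5 of 5 pairs, by 0.23 to 0.92, and the groups met only where OIL F3 reached the level of the TAM arrays 204 and 206. The means were 10.21 ± 0.27 in TAM and 9.64 ± 0.26 in OIL (SD, n = 5 each), a difference of 0.56, or 1.48-fold (95% interval 0.22 to 0.90). The limma adjusted p was 0.156 without a block and 0.0348 with it.

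The other Cd28 probe set, 1417597_at, read 10.04, 10.08, 10.08, 9.87 and 10.50 in TAM and 9.68, 9.33, 9.07, 9.11 and 10.10 in OIL. It was higher in TAM in 5 of 5 pairs, by a mean of 0.65 or 1.57-fold, with a limma adjusted p over all probe sets of 0.264, and of 0.0309 with the block. The call on 1437025_at did not hold in most subsets of pairs. With the block, its adjusted p was 0.0487 without pair 204, but 0.0878 without 206, 0.102 without F3.1, 0.0617 without F3.2 and 0.0823 without F3, with differences of 0.47 to 0.65.

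**Figure D3:**
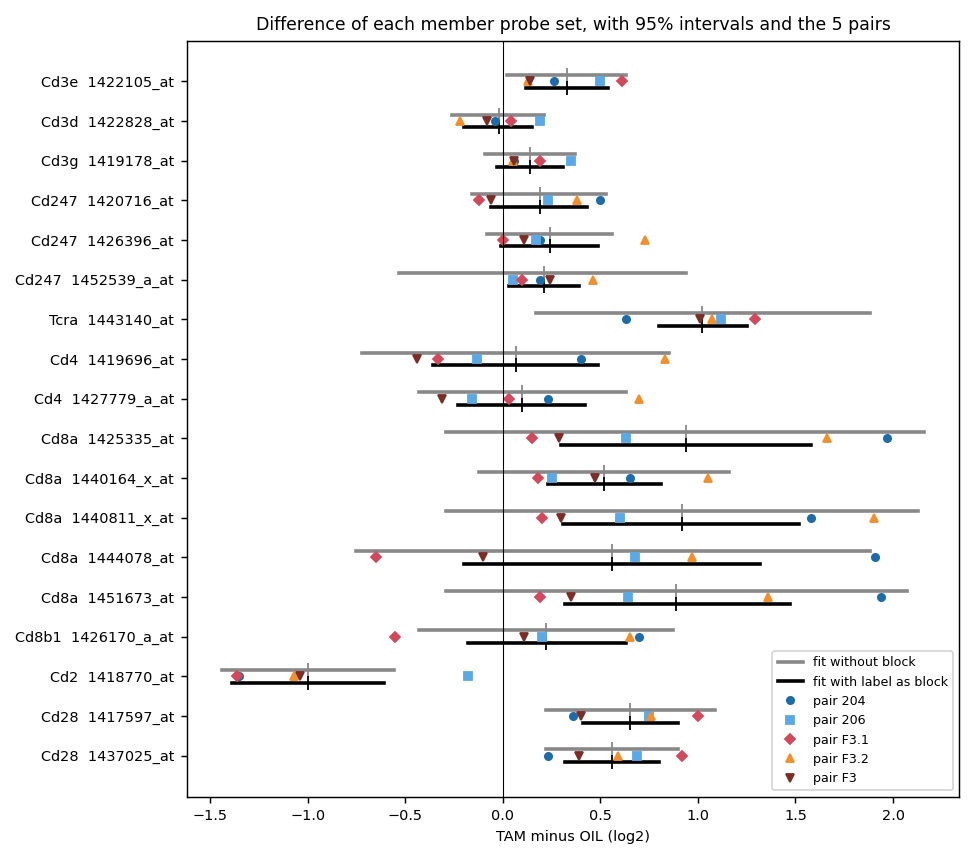
TAM minus OIL (log2, horizontal axis) for the 18 tested member probe sets; coloured symbols are the 5 label pairs, short ticks the mean differences, and bars the 95% intervals without a block (grey) and with the label as a block (black). The Cd2 symbols all lie left of 0, and those of Tcra and Cd28 all lie right of it.

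Across labels, Cd3e, Cd3d and Cd3g were lowest and the coreceptor genes highest in label F3, and no member passed the test. The split of the F3 labels from 204 and 206 was already known from earlier results on these arrays, so it is given as a description with its fit, on 5 label means, each the mean of a TAM and an OIL array. Of the members, 4 were lower and 6 higher in the F3 labels (F3, F3.1 and F3.2) than in 204 and 206. None passed limma's adjusted threshold, against 2.6% of all genes, and 2 had an unadjusted p under 0.05, Cd8a with a higher and Cd3d with a lower level, against 18.4% of all genes.

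Cd3e, Cd3d and Cd3g, adjacent genes on chromosome 9, ordered the labels identically, with F3 lowest, then F3.2, F3.1, 206 and 204. The steps were small: Cd3d label means were 12.63 for F3, 12.65 for F3.2, 12.77 for F3.1, 12.89 for 206 and 12.98 for 204, and the F3 and F3.2 means differed by less than the TAM and OIL arrays of F3.2 did. Cd3d averaged 12.68 ± 0.08 in the F3 labels (SD, n = 3) and 12.93 ± 0.07 in 204 and 206 (SD, n = 2), a difference of -0.25 with a limma adjusted p of 0.221. The differences of Cd3e and Cd3g were -0.28 and -0.23, with limma adjusted p of 0.319 and 0.305.

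The label order of Cd8a ran the other way. The means of 1444078_at were 11.18 for F3, 10.77 for F3.2, 10.08 for F3.1, 9.62 for 206 and 8.74 for 204. Each neighbouring pair of labels differed by less than the TAM and OIL arrays of 204 did, which were 1.91 apart. The F3 labels averaged 10.68 ± 0.55 (SD, n = 3) and 204 and 206 averaged 9.18 ± 0.62 (SD, n = 2), a difference of 1.5 or 2.82-fold (95% interval 0.55 to 2.44, limma adjusted p = 0.116). The order was the same in 4 of the 5 Cd8a probe sets, with 206 and F3.1 exchanged in 1451673_at.

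The other members followed neither order in full. Cd4 and Cd8b1 shared theirs, with F3 highest, then F3.2, 204, F3.1 and 206, and exceeded 204 and 206 in the F3 labels by 0.72 and 0.51 (limma adjusted p = 0.323 and 0.413). The Cd8b1 means of 204, F3.1 and 206 were 9.98, 9.94 and 9.91, closer together than the TAM and OIL arrays of each of these labels. On the dimmer Cd4 probe set, 1427779_a_at, F3.1 was lowest at 4.81, with 204 and 206 both at 4.82. Tcra was highest in F3 at 6.69 and lowest in F3.2 at 4.94, both of them F3 labels, so that the family difference of 0.51 had a 95% interval of -0.67 to 1.70. Cd2, Cd28 and Cd247 differed by 0.18, 0.32 and -0.17 between the families, with limma adjusted p of 0.68, 0.281 and 0.62. These differences depended on probe set and label: the other Cd28 probe set, 1417597_at, gave 0.01 and Cd247 1452539_a_at gave -0.60. Without label F3 the Cd2 difference was 0.01, and without 204 or F3.1 that of Cd247 was -0.04 or -0.06.

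**Figure D4:**
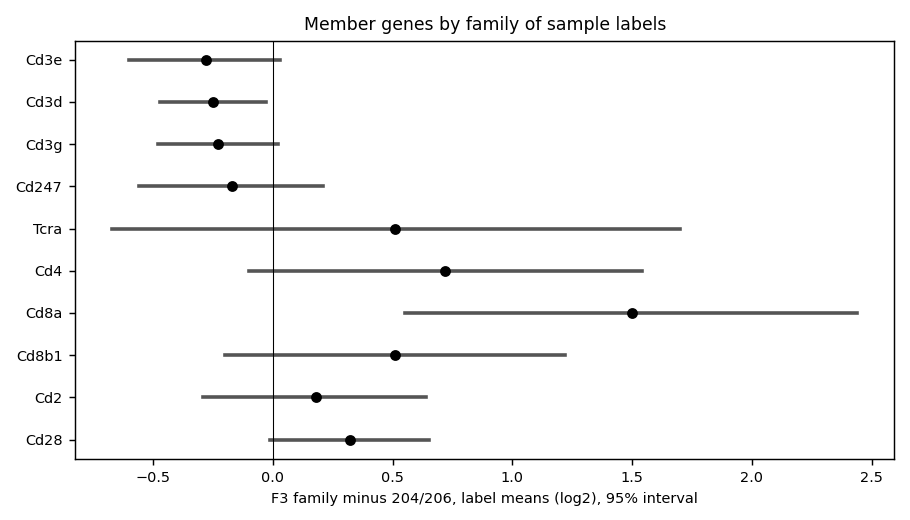
Difference of each member gene between the F3 labels (F3, F3.1, F3.2) and labels 204 and 206 (log2, horizontal axis), from label means; dots are differences and bars 95% intervals. The 4 CD3 chain genes lie left of 0 and the 3 coreceptor genes right of it, and the intervals of Cd3d and Cd8a leave out 0.

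The myeloid list mean was 5.95 in the F3 labels and 5.30 in 204 and 206, highest on TAM F3 at 6.72 and lowest on OIL 204 at 4.88, the array with the lowest Cd8a. The labels were not cleanly split, since TAM 204 at 5.55 and OIL 206 at 5.42 exceeded OIL F3.2 at 5.34. The mean was higher in the F3 labels for 10 of 11 genes, but the gap lay mostly in the neutrophil genes S100a8 (8.48 in the F3 labels and 6.49 in 204 and 206), S100a9 (7.71 and 5.93) and Ngp (7.52 and 6.30). It was small for Csf1r (6.28 and 6.20), Csf3r (4.74 and 4.70) and Cd68 (5.11 and 5.07), and Elane stood at 4.74 and 4.75. The part of these cells in the coreceptor levels was not tested.

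The effect of TAM was compared between the label families by an interaction term. None of the 10 members passed limma's adjusted threshold, against 0% of all genes, and none had an unadjusted p under 0.05, against 2.72%. The widest gap was that of Cd8a on its brightest probe set, 1444078_at, whose TAM minus OIL difference was 0.07 in the F3 labels and 1.30 in 204 and 206, an interaction of -1.22 (95% interval -2.95 to 0.50). With the label as a block the 95% interval was -2.50 to 0.05 (limma unadjusted p = 0.0577, adjusted p = 0.872). The other Cd8a probe sets did not share it in full: they differed by 0.56 to 0.80 in the F3 labels and by 0.45 to 1.30 in 204 and 206, and 1440164_x_at ran the other way, at 0.56 in the F3 labels and 0.45 in 204 and 206. Cd2 differed by -1.15 in the F3 labels and by -0.77 in 204 and 206, and Tcra by 1.12 and 0.88.

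The genes whose levels over the 10 arrays most resembled those of the 3 widest-ranging members are given as a description, since arrays of a label and of a group share their source. For Cd8a they were Mss51, Malt1 and Atp6v0a2, with Pearson r of 0.971, 0.968 and 0.960, and each was lowest on OIL 204 and highest on OIL F3. For Tcra they were Dnaja1, Lonrf1 and Smc4 (r = 0.961, 0.921 and 0.921), each highest on TAM F3. For Cd4 they were Fam214a, Cnot8 and Zfp40 (r = 0.957, 0.955 and 0.947).

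Most genes that work with these receptors did not pass. Of 19 tested proximal kinases and adaptors, which carry the receptor signal inward, 9 had a higher mean in TAM, the median difference was -0.02, 3 had an unadjusted p under 0.05 and 0 passed in either limma fit. Over all genes the shares were 13% at the unadjusted p, 0.471% adjusted without a block and 3.38% with it, which are the background for each list here. Of 20 other costimulators, inhibitory relatives and surface antigens, 11 had a higher mean, the median was 0.08, 5 had an unadjusted p under 0.05 and 0 passed without a block. With the block the inhibitory receptor gene Pdcd1 fell, at 5.27 ± 0.15 in TAM and 6.65 ± 0.84 in OIL (SD, n = 5 each; limma adjusted p = 0.115, and 0.0385 with the block). Of 16 thymocyte stage genes, 11 had a higher mean, the median was 0.13, 2 had an unadjusted p under 0.05 and 0 passed without a block. With the block Cd24a, the heat stable antigen of immature thymocytes, rose by 0.50 (limma adjusted p = 0.0935, and 0.031 with the block).

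Of 25 genes for factors that act on the Cd4, Cd8 and receptor loci, 15 had a higher mean, the median was 0.03, 6 had an unadjusted p under 0.05 (13% of all genes did), 1 rose without a block (0.471% passed) and 4 passed with it (3.38% passed). The gene that passed without a block was Nfatc2, at 8.14 ± 0.22 in TAM and 7.43 ± 0.15 in OIL (SD, n = 5 each; difference 0.71, limma adjusted p = 0.0324, and 0.0184 with the block), on its brightest probe set alone, the others differing by -0.13 to 0.11. With the block Tox, a factor needed for CD4 lineage thymocytes, fell by 1.02 (difference -1.02, limma adjusted p = 0.0861, and 0.0293 with the block), and its other probe sets differed by -1.0 and -0.97. Ikzf3 and Ikzf1, Ikaros family factors, fell with the block by 0.75 and 0.34 (differences -0.75 and -0.34, limma adjusted p = 0.0252 and 0.0467), but another Ikzf3 probe set was higher in TAM by 0.58.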

How the data were processed

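The authors deposited log2 expression values for 10 arrays, and the submitters' processing notes name RMA, its version not given in the sources used here. This method subtracts background, scales arrays by quantiles and summarises each probe set, which takes out shifts shared by all genes, and array medians lay between 5.07 and 5.13. Arrays have no read depth, and their number limits the precision. No genome build comes with the values.

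Of the 45101 probe sets, 64 were controls. The brightest probe set on average over the 10 arrays stood for its gene, and the lowest 30% of 18193 genes by that mean, under 4.59, were left out, leaving 12735. A fit over all probe sets left out the lowest 30% (under 4.04), leaving 31526. The comparison of TAM with OIL used lmFit and eBayes of limma (version 3.58.1, R version 4.3.3, tables read with version 1.17.8 of data.table), two-sided, with Benjamini-Hochberg adjustment over all features tested and a threshold of 0.05. The label families were compared on label means, and the TAM effect between them by an interaction term. The fits were run on simulated data with planted differences. This checked the size of their estimates, not their error rates on these arrays.

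The final number of the F3.1 and F3.2 sample names, which differs between the groups, was dropped to match labels. Arrays of a label deviated together from their group means (Pearson r over genes: 204 at 0.76, 206 at 0.75, F3.1 at 0.58, F3.2 at 0.18 and F3 at 0.80, all above the limit of 0.1), so the label was used as a block beside the fit without it. The pairing of F3.2 is the weakest: TAM F3.2 reached 0.29 with an OIL array of another label, above the 0.18 with its own. TAM F3.1 and OIL F3.2 correlated at 0.61, above the 0.58 of the F3.1 pair. Each array's highest correlation with another label was 0.29 to 0.61, so the limit of 0.1 does not set arrays of 1 label apart. Calls made only with the block rest on this matching.

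Named were all members, the deleted gene, called members of 5 context lists and, for 3 members, the 3 genes most like each over the arrays. Ptcra, Trbv13-2 and the single marker genes of the cell type lists, with or without values, were named outside this rule, after their values were seen. Members and lists were chosen with earlier results of these data known. Alternatives were the block, other filters, scalings, probe set choices, variance models and array weights. Others were the averaging of 2 near-identical OIL arrays, F3.1 and F3.2, and leaving out arrays, labels or pairs. Except where they were averaged or left out, SDs and p-values count these OIL arrays as 2. The averaging was run without the block only.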

Additional observations from a re-analysis of the deposited data

Results flagged for a closer look

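The OIL F3 array stood apart on the dimmer Cd4 probe set, 1427779_a_at, at 5.83, while the other 4 OIL arrays lay between 4.70 and 4.91. Its gap to the nearest array was 0.819 of the range of the group, above Dixon's critical value of 0.71 for 5 samples. The brighter Cd4 probe set was also highest on OIL F3, at 7.94, without being set apart by the same test. Of 38 groups of 5 arrays tested, 1 was set apart in this way, and chance alone does so in about 5% of groups.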

How the results depend on the processing

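The count of member genes past the threshold, 0 in limma's fit without a block, was 3 with the replicate block, 1 when the lowest 50% of genes were left out and 1 with array weights. It ranged between 0 and 1 when single arrays were left out. The 1 gene was Cd2 each time, and with the 50% filter it passed only narrowly. For probe sets the count of 0 became 4 with the replicate block, and ranged between 0 and 1 over arrays left out. With the block 431 genes and 568 probe sets passed in all, against 60 and 32 without it, and among the members it changed the calls of Tcra, Cd28 and Cd2 and no other. The count of all genes was 242 with array weights, 26 with the mean of all probe sets, 25 with the most variable probe set, 10 with OIL F3.1 and OIL F3.2 averaged, and 8 to 54 over arrays left out. With that averaging, limma's adjusted p without a block was 0.139 for Cd2, 0.323 for Cd28 and 0.487 for Tcra. With these arrays kept apart it was 0.0588, 0.156 and 0.292.

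Signs turned only for differences near 0: Cd3d was 0.04 and Cd4 was -0.03 with array weights, Cd3d ranged between -0.07 and 0.04 over arrays left out (0.04 without TAM F3.2, 0.02 without TAM F3, 0.03 without OIL 204), Cd4 ranged between -0.12 and 0.33 (-0.12 without TAM F3.2, -0.07 without TAM F3, -0.02 without OIL 204, -0.08 without OIL 206), and Cd2 between the label families was -0.02 in TAM arrays alone. Between label families the count of members past the threshold was 0 in every alternative run, while that of all genes, 331, was 1147 with array weights, 835 with the label as a random block, 177 with the most variable probe set, 87 in TAM arrays alone and 107 to 535 over labels left out. The interaction gave 0 members in every alternative run. The causes were not tested.

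Chosen after the data were seen, other settings within the blocked fit gave limma adjusted p of 0.0026 to 0.00643 for Tcra, 0.0208 to 0.0359 for Cd2 and 0.0211 to 0.0388 for Cd28 when all pairs were kept. Leaving out a pair ended the call of Cd2 and of Cd28 in 4 of 5 cases each.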
